A study of Mus musculus with 27 samples.

Results

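The 7 genes described here encode the epithelial alarmins IL-33, TSLP and IL-25 and the receptor chains that recognise them. They were taken by symbol (Il33, Il1rl1, Il1rap, Tslp, Crlf2, Il25 and Il17rb) from a table of linear RNA that holds 21742 genes, and each had 1 row. Expression was measured by ribosome-depleted, stranded RNA sequencing in a model of severe asthma, in 27 libraries made from the left lobe of the lung. The mice were of the strain BALB/c AnNHsd and 87 days old. Dex_CDGHDM mice (6 libraries) were sensitized in the lung with house dust mite extract and cyclic di-GMP, a bacterial second messenger used as a mucosal adjuvant, and were given dexamethasone, a synthetic glucocorticoid, intraperitoneally in 3 doses of 3 mg/kg. AM155 mice (6 libraries) were given an antisense oligonucleotide against miR-155 in lipid nanoparticles intravenously in 3 doses of 2 mg/kg. Both treatments fell on days 11, 18 and 25 of a 35-day protocol. CDG_HDM mice (10 libraries) were sensitized with the same extract and adjuvant and not treated, and Saline mice (5 libraries) were unsensitized. The labels do not state in words that the AM155 mice were sensitized, and they name no group that received empty nanoparticles or a vehicle for dexamethasone.

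Alarmins are cytokines that barrier cells make or hold in store and release when they are damaged or meet an allergen. IL-33 acts through ST2, encoded by Il1rl1, paired with the IL-1 receptor accessory protein encoded by Il1rap; TSLP acts through a chain encoded by Crlf2 paired with the IL-7 receptor alpha chain; and IL-25, a member of the IL-17 family, acts through a chain encoded by Il17rb paired with the IL-17 receptor A chain. In the airway these signals act on group 2 innate lymphoid cells (ILC2), mast cells, basophils, dendritic cells and T helper cells, and they are studied as upstream drivers of allergic airway inflammation.

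Lung identity was checked with alveolar type 2 cell genes, of which Sftpc averaged 18453, Sftpa1 2550 and Sftpd 891 TPM (transcript abundance scaled for transcript length and for the library) over the 27 libraries. The linear table did not add up to the full TPM scale, and its sum was lower in the sensitized and treated groups: it was 629353 to 767968 TPM in Dex_CDGHDM, 542264 to 770987 TPM in AM155 and 628177 to 798457 TPM in CDG_HDM libraries, against 806446 to 858506 TPM in Saline libraries. A companion table of circular RNA summed to over 200000 TPM in 3 libraries (AM155 5, AM155 6 and Dex_CDGHDM 4) and to at most 87913 TPM in Saline libraries. None of the 7 genes had a row among the 4416 genes of that circular table. Because the linear sum moved with the groups, each change below was also computed under 3 other scalings (median of ratios, quantile normalization and rescaling to 1 common linear sum), which set the median change of all genes near 0. TPM keeps no read counts, so the depth behind a value is unknown. Lung tissue is a mixture, and in such bulk samples fewer cells of a type and less RNA per cell cannot be told apart. A p-value sets a difference between groups against the spread between these libraries.

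Il33 lies at chr19:29925114-29960718 on the plus strand and Il1rl1 at chr1:40429570-40465415 on the plus strand (GRCm38), and the annotation gives each 5 protein-coding transcripts. Il1rl1 has a distal and a proximal promoter, known to be used by different cell types, and its transcripts give rise to membrane-bound ST2 and to soluble ST2, a decoy. A value per gene symbol does not separate these forms. The start regions of Il33 and Il1rl1, the ligand and receptor genes that changed in opposite directions, are printed below from RefSeq (build GRCm38.p6), each 250 bases before to 50 bases after a start site, 5′ to 3′ on the plus strand. Capitals mark matches to the motifs searched. The ranges are, in the order printed, chr19:29924863-29925162, chr19:29945540-29945839, chr1:40429320-40429619 and chr1:40439379-40439678.
Il33 upstream start: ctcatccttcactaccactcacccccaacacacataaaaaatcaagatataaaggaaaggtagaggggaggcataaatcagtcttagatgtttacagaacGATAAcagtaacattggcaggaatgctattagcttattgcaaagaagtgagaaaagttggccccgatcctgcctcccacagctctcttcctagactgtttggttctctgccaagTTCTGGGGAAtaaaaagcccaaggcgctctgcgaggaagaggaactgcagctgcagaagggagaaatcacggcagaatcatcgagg
Il33 downstream start: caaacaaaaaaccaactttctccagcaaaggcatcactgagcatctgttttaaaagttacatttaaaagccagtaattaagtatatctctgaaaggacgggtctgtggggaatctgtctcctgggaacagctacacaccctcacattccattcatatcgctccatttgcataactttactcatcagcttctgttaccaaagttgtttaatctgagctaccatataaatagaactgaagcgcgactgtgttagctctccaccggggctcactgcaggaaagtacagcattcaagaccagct
Il1rl1 distal start: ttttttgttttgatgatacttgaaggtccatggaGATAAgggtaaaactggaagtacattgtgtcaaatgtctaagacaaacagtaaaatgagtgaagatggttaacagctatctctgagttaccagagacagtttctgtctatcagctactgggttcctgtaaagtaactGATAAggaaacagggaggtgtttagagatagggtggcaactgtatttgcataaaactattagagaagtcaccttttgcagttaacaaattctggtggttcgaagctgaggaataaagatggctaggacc
Il1rl1 proximal start: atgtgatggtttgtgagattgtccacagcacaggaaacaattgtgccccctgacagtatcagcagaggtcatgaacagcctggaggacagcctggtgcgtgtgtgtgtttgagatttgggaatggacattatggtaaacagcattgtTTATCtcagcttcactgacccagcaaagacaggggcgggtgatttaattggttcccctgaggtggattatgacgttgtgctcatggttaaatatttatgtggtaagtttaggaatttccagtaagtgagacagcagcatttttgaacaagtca
Of the 7 genes, 5 were matched to that table (all but Tslp and Il25), with 7 regions in all. Both strands were searched for 7 motifs: GATAA (GATA factors), TGACTCA (AP-1), TTC and GAA 3 bases apart (STAT5), TTC and GAA 4 bases apart (STAT6), GGGA and TTTCC 1 base apart (NF-kB), a pair of GAAA 2 bases apart (interferon response element), and GNACA and TGTNC 3 bases apart (glucocorticoid receptor). No motif was found overlapping another in these regions. GATAA was found at 2 places in the distal Il1rl1 region, at 1 in the proximal Il1rl1 region (as TTATC on the printed strand) and at 1 in the upstream Il33 region, and 25.4% of all 32851 start regions held it. The STAT6 motif was found once in the upstream Il33 region, 36 bases before the start site, and 6.95% of all regions held it. The Crlf2 region held none of the 7 motifs, the Il17rb region held GATAA and TGACTCA once each, and the Il1rap region held the interferon response element once. Over all regions, 5.2% held TGACTCA, 8.3% the STAT5 motif, 0.411% the NF-kB motif, 3.44% the interferon response element and 0.475% the glucocorticoid receptor motif. GC content was 46.3% and 42.3% for Il33 and 38.7% and 44.7% for Il1rl1, but 71.7% for Crlf2 and 72.0% each for Il1rap and Il17rb, against a median of 52.7% over all regions. Such matches describe the printed letters and no binding was measured.

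The oligonucleotide given to AM155 mice was directed against miR-155, whose mature strand has the sequence printed next (RefSeq, chr16:84714143-84714165, plus strand), with its seed, bases 2 to 8, in capitals.
mmu-miR-155-5p: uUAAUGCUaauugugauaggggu
The 7-base match to this seed, AGCATTA, occurred in the annotated 3′ untranslated regions of 0 of the 7 alarmin and receptor genes, against 1855 of 21037 protein-coding genes with such a region (8.82%). The longest annotated 3′ untranslated region ranged from 137 bases for Crlf2 to 3246 bases for Il1rl1, around a median of 960 bases over those genes, so the length open to a match differed widely between the 7 genes.

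TPM is scaled per transcript length, so levels can be set side by side between genes. In every group the order of mean TPM was Il33, Crlf2, Il1rap, Il1rl1, Tslp, Il17rb and Il25. Il33 averaged 110.8 ± 23.7 TPM in Dex_CDGHDM (SD, n = 6), 97.6 ± 15.6 TPM in AM155 (n = 6), 112 ± 23.2 TPM in CDG_HDM (n = 10) and 79.9 ± 11.1 TPM in Saline libraries (n = 5). Il25, the lowest, averaged 0.247 ± 0.0704 TPM in Dex_CDGHDM, 0.324 ± 0.0912 TPM in AM155, 0.301 ± 0.137 TPM in CDG_HDM and 0.562 ± 0.137 TPM in Saline libraries. Neighbours in this order did not overlap in Saline libraries, where every step separated the libraries of one gene from those of the next. Tslp and Il17rb overlapped in Dex_CDGHDM, AM155 and CDG_HDM libraries, Il1rap and Il1rl1 overlapped in Dex_CDGHDM and AM155 libraries, and Il1rl1 and Tslp overlapped in CDG_HDM libraries. The ligands thus spanned the whole range, with Il33 highest and Il25 lowest, and the TSLP receptor gene Crlf2 was the receptor with the highest TPM.

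**Figure D1:**
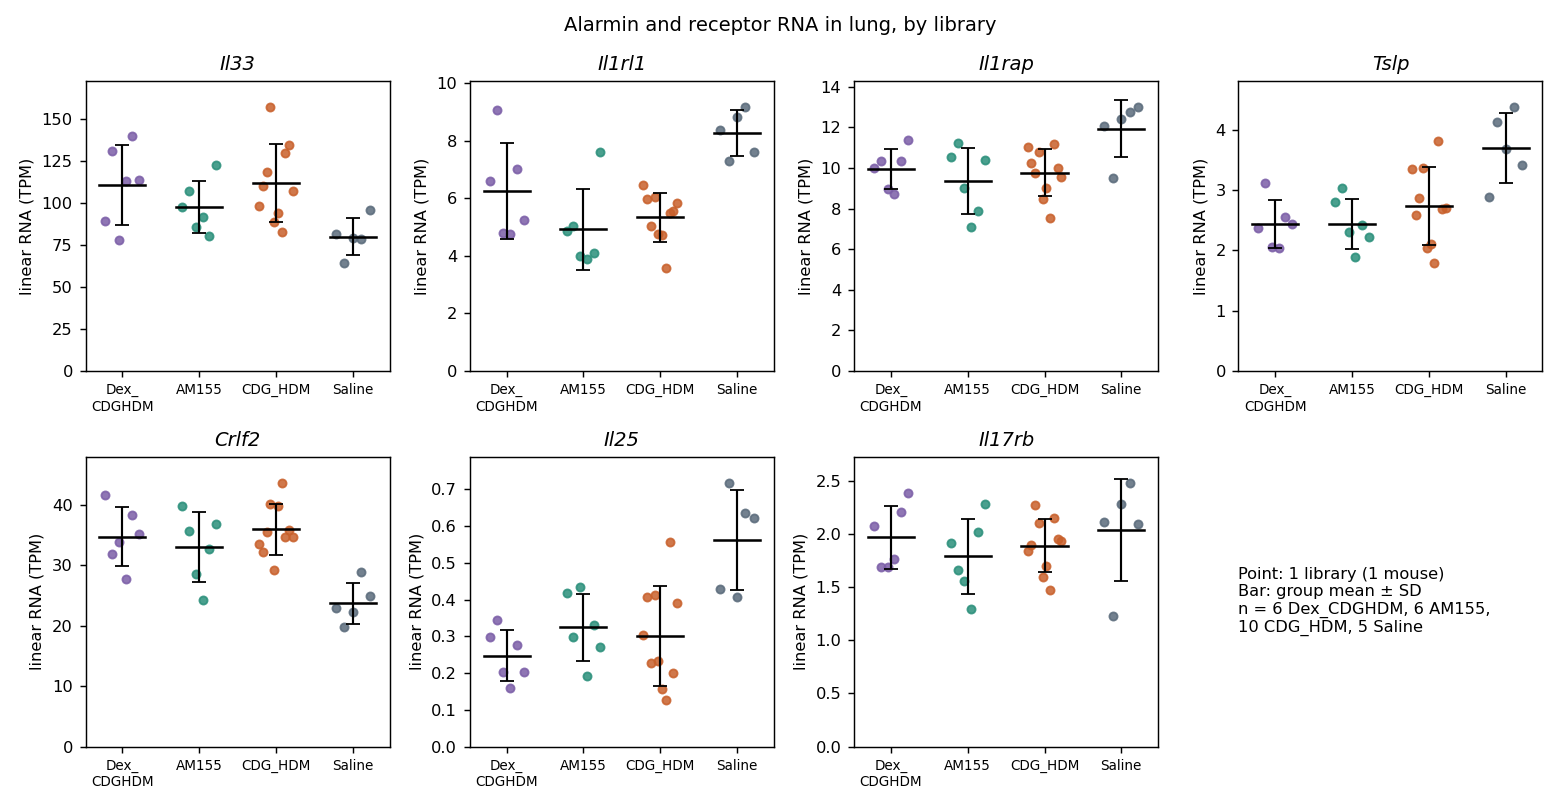
TPM of each of the 7 genes (1 panel per gene, linear axis from 0) in each library of the Dex_CDGHDM, AM155, CDG_HDM and Saline groups; points are libraries and bars the mean ± SD. Every CDG_HDM library lies above all Saline libraries for Crlf2 and below all of them for Il1rl1.

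The first comparison asked what sensitization did to the alarmin system, by setting CDG_HDM against Saline lungs. Il33 and Crlf2 were higher in CDG_HDM lungs, by 1.4-fold and 1.51-fold in mean TPM, and Il1rl1, Il1rap, Tslp and Il25 were lower, at 0.647, 0.817, 0.739 and 0.536 times the Saline mean. Ligand and receptor therefore changed in opposite directions within the IL-33 and TSLP pairs: the ligand was higher and the receptor lower for IL-33, and the receptor was higher and the ligand lower for TSLP. Of the 7 genes, 6 passed the filter of at least 1 TPM in at least 5 libraries, and 5 of these 6 were called at an adjusted p of 0.05 (limma on log2(TPM + 1), Benjamini-Hochberg over 17413 genes), where 32.2% of all genes tested were called. The 2 called higher stand against 9.34% of all genes, and the 3 called lower against 22.8%. Il25 did not pass the filter and was tested by itself. Of all called genes, 29.0% were higher, and under the 3 other scalings 45.6% to 62.9% were, while the median change of all genes moved to between -0.01 and 0.04, against -0.10 in TPM as deposited.

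Il33 ranged over 82.7, 109 and 157 TPM (lowest, median and highest) in CDG_HDM libraries, against 81.8, 64.4, 79.4, 78.4 and 95.6 TPM in Saline 2, 4, 5, 8 and 10. All 10 CDG_HDM libraries exceeded the Saline mean and 7 exceeded every Saline library, so the groups overlapped. The log2 change was 0.47 ± 0.138 (SE; 95% interval 0.19 to 0.75; limma adjusted p = 0.00907), and it was 0.57 to 0.63 under the 3 other scalings. Beside it, summed TPM of the 10 alveolar type 2 genes, the cells known as the main source of IL-33 in mouse lung, was 20362 to 30032 TPM in CDG_HDM libraries, against 21670 to 23766 TPM in Saline libraries, and none of these genes was at 0. Within that sum, Sftpc alone averaged 18453 TPM over the 27 libraries, and it differed by 0.07 between the groups. Of the 10 genes, 3 were called higher and none lower, where 9.34% of all genes tested were called higher and 22.8% lower. The part of alveolar type 2 cells in the Il33 change was not tested.

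Il1rl1, the receptor chain that binds IL-33, ranged over 3.56, 5.53 and 6.46 TPM in CDG_HDM libraries, against 8.39, 7.29, 8.85, 9.17 and 7.63 TPM in Saline 2, 4, 5, 8 and 10. Every CDG_HDM library lay below every Saline library, a separation downwards that 8.92% of all genes tested also showed. The log2 change was -0.55 ± 0.129 (limma adjusted p = 0.00119), and it was -0.46 to -0.41 under the 3 other scalings. Mast cells and basophils carry ST2. Of the 10 tested genes of a mast cell and basophil list, 6 were also called lower and 4 were not called, where 22.8% of all genes were called lower. The summed TPM of the 11 measured genes of that list was 95.4 to 163 TPM in CDG_HDM libraries, against 157 to 212 TPM in Saline libraries, with no gene at 0. Within that sum, Gata2, also expressed by endothelium, averaged 35.2 TPM in CDG_HDM and 64.5 TPM in Saline libraries. How far mast cells and basophils account for the lower Il1rl1 was not tested.

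Il1rap, the signalling partner that ST2 shares with receptors for IL-1 and IL-36 (chr16:26581704-26730117, plus strand), ranged over 7.56, 9.88 and 11.2 TPM in CDG_HDM libraries, against 12.1, 9.5, 12.4, 12.7 and 13.0 TPM in Saline 2, 4, 5, 8 and 10. All 10 CDG_HDM libraries lay below the Saline mean, but only 3 lay below every Saline library, because Saline 4 was low. The log2 change was -0.27 ± 0.0970 (limma adjusted p = 0.0346). The call was lost on rescaling to a common linear sum, where the log2 change was -0.12 (limma adjusted p = 0.150). It was also lost when any 1 of Saline 2, 5, 8 and 10 or of CDG_HDM 4, 12 and 14 was left out, at -0.26 to -0.23 (limma adjusted p = 0.0548 to 0.10).

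Tslp encodes the ligand of the second pair and lies at chr18:32815383-32819797. It ranged over 1.78, 2.70 and 3.82 TPM in CDG_HDM libraries, against 2.89, 4.14, 3.69, 4.38 and 3.42 TPM in Saline 2, 4, 5, 8 and 10. In CDG_HDM, 9 of 10 libraries lay below the Saline mean and 7 below every Saline library. The log2 change was -0.34 ± 0.111 (limma adjusted p = 0.0171). It did not pass on rescaling to a common linear sum, at -0.22 (limma adjusted p = 0.0631), or without Saline 8, at -0.29 (limma adjusted p = 0.0685).

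Crlf2, the TSLP-binding chain (chr5:109554709-109558993, minus strand), ranged over 29.3, 35.2 and 43.6 TPM in CDG_HDM libraries, against 22.9, 19.8, 22.3, 28.9 and 24.9 TPM in Saline 2, 4, 5, 8 and 10. Every CDG_HDM library lay above every Saline library, as 5.07% of all genes tested did, although the lowest CDG_HDM library (29.3 TPM) and the highest Saline library (28.9 TPM) were close. The log2 change was 0.58 ± 0.107 (limma adjusted p = 9.53e-05), and 0.66 to 0.74 under the 3 other scalings. Of 9 tested dendritic cell genes, a cell type that responds to TSLP, 5 were called higher and 1, Cd209a (-1.03; limma adjusted p = 2.72e-06; named after its value was seen), lower. The other 3 were not called, and among all genes tested 9.34% were called higher and 22.8% lower. The summed TPM of the 10 genes of that list was 115 to 181 TPM in CDG_HDM libraries, against 77.0 to 94.2 TPM in Saline libraries, with no gene at 0. Within that sum, Irf4 alone averaged 63.4 TPM in CDG_HDM and 13.1 TPM in Saline libraries. The part of dendritic cells in the Crlf2 change was not tested.

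Il25 (chr14:54932695-54935837) was under 1 TPM in all 27 libraries. It ranged over 0.126, 0.268 and 0.556 TPM in CDG_HDM libraries, against 0.430, 0.717, 0.406, 0.636 and 0.622 TPM in Saline 2, 4, 5, 8 and 10. All 10 CDG_HDM libraries lay below the Saline mean and 7 below every Saline library. The log2(TPM + 1) difference was -0.27 (exact permutation test over libraries, two-sided, p = 0.00599, adjusted p = 0.0180 over the 6 group comparisons of Il25). This scale understates the change of so low a gene, and with a pseudocount of 0.1 in place of 1 the difference was -0.77. The adjusted p of this exact permutation test was 0.0559 with median-of-ratios scaling and 0.0659 after rescaling to a common sum, and 0.0540 without Saline 4, without Saline 8 or without Saline 10. Tuft cells, an epithelial type known as a source of IL-25, had 4 of 7 listed genes tested, of which Dclk1 was called higher and none lower. The other 3 were not called, at -0.17 to -0.12, and 9.34% of all genes tested were called higher and 22.8% lower. Summed TPM of that list was 19.8 to 27 TPM in CDG_HDM libraries, against 13.8 to 20.8 TPM in Saline libraries. Within that sum, Dclk1 alone averaged 12.2 TPM in CDG_HDM and 5.73 TPM in Saline libraries. No tuft cell gene was at 0, although Chat averaged under 0.1 TPM in CDG_HDM libraries, and the part of these cells was not tested.

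Il17rb, the IL-25-binding chain (chr14:29996135-30008896, minus strand), ranged over 1.47, 1.92 and 2.27 TPM in CDG_HDM libraries, against 2.11, 1.22, 2.28, 2.48 and 2.09 TPM in Saline 2, 4, 5, 8 and 10. The groups overlapped fully, with no CDG_HDM library outside the Saline range. The log2 difference was -0.06 ± 0.0945 (95% interval -0.25 to 0.13; limma adjusted p = 0.664), and it changed sign under the 3 other scalings (0.02 to 0.05).

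**Figure D2:**
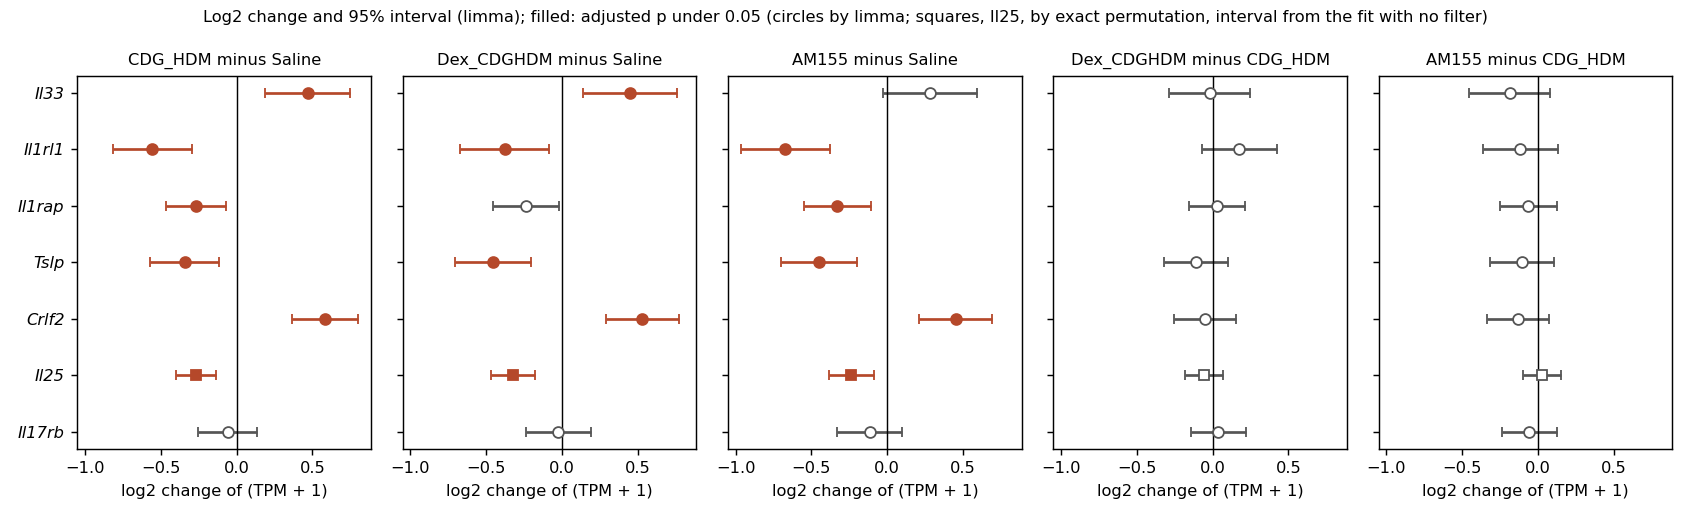
Log2 change of (TPM + 1) with its 95% limma interval for each of the 7 genes in 5 contrasts; filled markers have an adjusted p under 0.05 (circles by limma; squares, Il25, by exact permutation, with the interval from a fit without the filter). Filled markers appear only in the panels set against Saline, where Il33 and Crlf2 lie right of 0 and Il1rl1, Il1rap, Tslp and Il25 left of it.

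Within a library a factor common to all TPM values cancels from a ratio, so ligand was set against receptor library by library. Il33 was 18.1 times Il1rl1 in Dex_CDGHDM, 20.7 times in AM155 and 21.5 times in CDG_HDM libraries, against 8.97 times in Saline libraries (medians of TPM ratios). The ratio ran from 13.5 to 23.7 in Dex_CDGHDM, from 16.2 to 23.5 in AM155 and from 15.2 to 26.0 in CDG_HDM libraries, against 8.55 to 12.5 in Saline libraries, so none of the 22 libraries of the first 3 groups reached down to the Saline range. For the TSLP pair the ratio went the other way. Tslp was 0.0682 times Crlf2 in Dex_CDGHDM, 0.0759 times in AM155 and 0.0792 times in CDG_HDM libraries, against 0.152 times in Saline libraries. The highest of these ratios in Dex_CDGHDM, AM155 and CDG_HDM libraries (0.0982, 0.0850 and 0.110) lay below the lowest in Saline libraries (0.127). The Il25 to Il17rb ratio had medians of 0.123 in Dex_CDGHDM, 0.172 in AM155 and 0.155 in CDG_HDM libraries, against 0.257 in Saline libraries, and the ranges of all 4 groups overlapped. These ratios restate the values above and were given no test. The share of all gene pairs whose ratio separates the groups was not computed, while 14% of single genes tested separated CDG_HDM from Saline libraries.

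**Figure D3:**
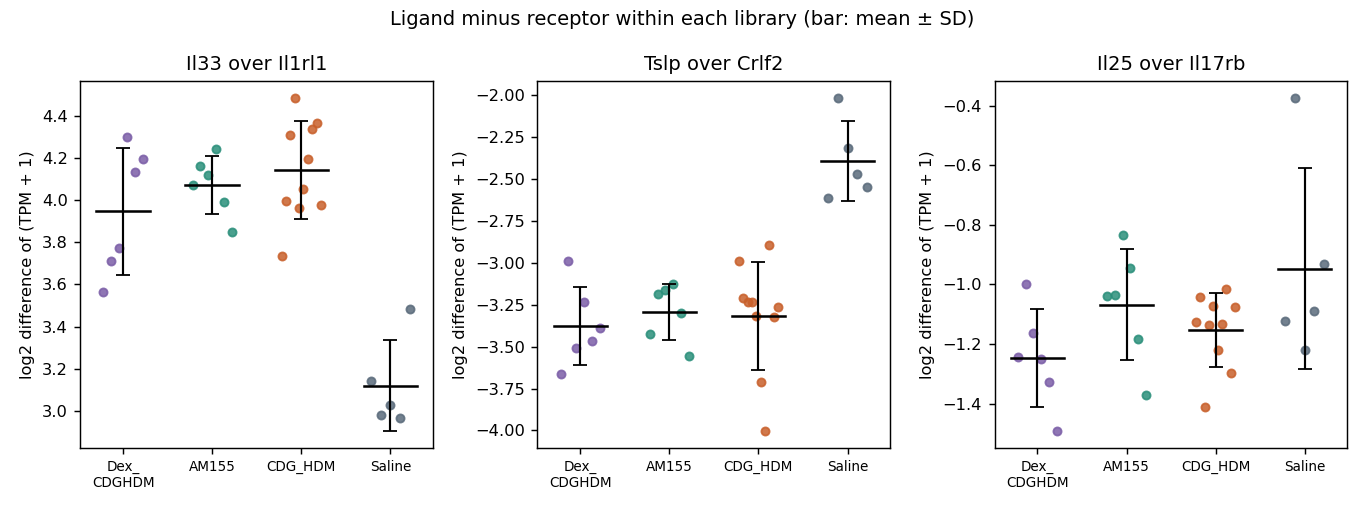
Log2(TPM + 1) of the ligand minus that of its receptor within each library, for Il33 over Il1rl1, Tslp over Crlf2 and Il25 over Il17rb, in the Dex_CDGHDM, AM155, CDG_HDM and Saline groups; points are libraries and bars the mean ± SD. For the first 2 pairs the Saline libraries lie apart from all others (2.96 to 3.48 for Il33 over Il1rl1, and -2.62 to -2.02 for Tslp over Crlf2), while for the last pair the groups overlap.

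The second comparison asked whether dexamethasone changed the alarmin system of sensitized lungs, by setting Dex_CDGHDM against CDG_HDM. None of the 6 genes tested was called (limma adjusted p = 0.9998 for each; 0 of 6 had an unadjusted p under 0.05), where 0.00574% of all genes, 1 gene, was called and 692 of 17413 had an unadjusted p under 0.05. Il33 ranged over 78.2, 113 and 140.0 TPM in Dex_CDGHDM libraries, against 82.7, 109 and 157 TPM in CDG_HDM libraries, and the log2 difference was -0.02 (95% interval -0.28 to 0.25; the sign turned under some of the other scalings, from -0.01 to 0.02). Crlf2 ranged over 27.7, 34.5 and 41.7 TPM in Dex_CDGHDM libraries, against 29.3, 35.2 and 43.6 TPM in CDG_HDM libraries, with a log2 difference of -0.05 (95% interval -0.26 to 0.15). Neither interval reached the point estimate of the log2 change between CDG_HDM and Saline lungs (0.47 for Il33 and 0.58 for Crlf2) or its reverse. Those estimates had 95% intervals of their own, 0.19 to 0.75 for Il33 and 0.36 to 0.80 for Crlf2, and shared the CDG_HDM libraries. For Il33 the dexamethasone interval overlapped the reverse of that range, so a full reversal was not excluded.

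Il1rl1 ranged over 4.77, 5.94 and 9.08 TPM in Dex_CDGHDM libraries, against 3.56, 5.53 and 6.46 TPM in CDG_HDM libraries. In Dex_CDGHDM, 3 of 6 libraries (1, 2 and 5) exceeded every CDG_HDM library, and Dex_CDGHDM 2 was within the Saline range. The log2 difference was 0.18 ± 0.121 (95% interval -0.07 to 0.42). Tslp was 2.04, 2.41 and 3.13 TPM (lowest, median and highest) in Dex_CDGHDM libraries, with a log2 difference from CDG_HDM of -0.11 (95% interval -0.32 to 0.10). Il1rap was 8.74, 10.2 and 11.4 TPM, with a difference of 0.03 (95% interval -0.16 to 0.22), and Il17rb was 1.69, 1.92 and 2.38 TPM, with a difference of 0.04 (95% interval -0.15 to 0.22). Il25 was 0.159, 0.240 and 0.345 TPM in Dex_CDGHDM libraries, a difference of -0.06 (exact permutation p = 0.419). A p that misses the threshold does not show that treated and untreated lungs were alike.

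The third comparison asked the same of the antisense oligonucleotide, by setting AM155 against CDG_HDM. Again none of the 6 genes tested was called (limma adjusted p = 0.699 to 0.820; 0 of 6 had an unadjusted p under 0.05), where 0.103% of all genes, 18 genes, were called and 1263 had an unadjusted p under 0.05. Il33 ranged over 80.3, 94.6 and 123 TPM in AM155 libraries, against 82.7, 109 and 157 TPM in CDG_HDM libraries; 5 of 6 AM155 libraries lay below the CDG_HDM mean, and the log2 difference was -0.19 (95% interval -0.45 to 0.08). Crlf2 ranged over 24.3, 34.2 and 39.9 TPM in AM155 libraries and differed by -0.13 (95% interval -0.34 to 0.08). Il1rl1 ranged over 3.9, 4.48 and 7.61 TPM in AM155 libraries, where AM155 11 stood above the other 5, and differed by -0.12 (95% interval -0.36 to 0.13). All 6 tested genes had a negative difference, but so did most genes: the median over all genes was -0.08, and under the 3 other scalings Il33 was at -0.10 to -0.07, Crlf2 at -0.05 to -0.02, and Il1rap was positive at 0.01 to 0.04.

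Tslp ranged over 1.89, 2.36 and 3.04 TPM in AM155 libraries and differed from CDG_HDM by -0.11 (95% interval -0.32 to 0.11). Il1rap ranged over 7.11, 9.69 and 11.2 TPM and differed by -0.06 (95% interval -0.25 to 0.12), and Il17rb ranged over 1.30, 1.79 and 2.28 TPM and differed by -0.06 (95% interval -0.24 to 0.13; under the 3 other scalings -0.04 to 0.02). Il25 ranged over 0.192, 0.315 and 0.434 TPM in AM155 libraries, a difference of 0.03 (exact permutation p = 0.676). AM155 6, 1 of the 3 libraries with a large circular sum, held the lowest value of its group for Il1rl1, Il1rap, Tslp, Crlf2, Il25 and Il17rb.

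The treated groups were also set against each other and against Saline. Between Dex_CDGHDM and AM155, 0 of 6 genes were called where 0.0804% of all genes were; the lowest p was that of Il1rl1, with a log2 difference of 0.29 ± 0.136 (unadjusted p = 0.0392, limma adjusted p = 0.660). Set against Saline, 4 of 6 genes were called in Dex_CDGHDM lungs, 2 higher and 2 lower, where 25.1% of all genes were called (7.57% higher and 17.5% lower). In AM155 lungs 4 of 6 were called, 1 higher and 3 lower, where 40.5% of all genes were called (7.8% higher and 32.7% lower). These contrasts share the Saline libraries with the first comparison, so their values are given side by side and are not independent repeats of it.

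Crlf2 was higher than in Saline lungs by a log2 change of 0.53 ± 0.118 in Dex_CDGHDM (limma adjusted p = 0.00121) and 0.45 ± 0.118 in AM155 lungs (limma adjusted p = 0.00353), and 5 of 6 Dex_CDGHDM and 4 of 6 AM155 libraries exceeded every Saline library. Tslp was lower by -0.45 ± 0.122 in Dex_CDGHDM (limma adjusted p = 0.00647) and by -0.45 ± 0.122 in AM155 lungs (limma adjusted p = 0.00469), although in AM155 lungs it did not pass after rescaling to a common sum (-0.24; limma adjusted p = 0.0681). Il33 was higher by 0.45 ± 0.152 in Dex_CDGHDM lungs (limma adjusted p = 0.0292), a call lost without any 1 of Saline 4, 5 and 8 or of Dex_CDGHDM 2, 4 and 5 (0.37 to 0.45; limma adjusted p = 0.0528 to 0.0785). Under the 3 other scalings, with all libraries kept, Il33 was higher there by 0.56 to 0.65 (limma adjusted p = 0.000503 to 0.00137). In AM155 lungs it differed by 0.28 ± 0.152 (limma adjusted p = 0.136), and under the 3 other scalings by 0.48 to 0.56 (limma adjusted p = 0.00190 to 0.00422).

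Il1rl1 was lower than in Saline lungs by -0.67 ± 0.142 in AM155 (limma adjusted p = 0.000498) and by -0.38 ± 0.142 in Dex_CDGHDM lungs (limma adjusted p = 0.0498). The Dex_CDGHDM call was at the threshold: under the 3 other scalings the change was -0.28 to -0.20 (limma adjusted p = 0.0638 to 0.207). Without any 1 of Saline 2, 5, 8 and 10 or of Dex_CDGHDM 1, 3, 4 and 6 it was -0.40 to -0.32 (limma adjusted p = 0.0577 to 0.129). Il1rap was lower by -0.33 ± 0.107 in AM155 lungs (limma adjusted p = 0.0159), a call lost after rescaling to a common sum (-0.07; limma adjusted p = 0.445) and without AM155 6 (-0.26; limma adjusted p = 0.0511). In Dex_CDGHDM lungs Il1rap differed by -0.24 ± 0.107 (limma adjusted p = 0.107), and without Saline 4 by -0.31 (limma adjusted p = 0.0271). Il17rb differed by -0.02 in Dex_CDGHDM and -0.12 in AM155 lungs (limma adjusted p = 0.896 and 0.374), and the AM155 value passed without Saline 4 (-0.22; limma adjusted p = 0.0456).

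All 6 Dex_CDGHDM libraries lay below every Saline library for Il25, a separation downwards that 12% of all genes tested showed in that contrast. The Il25 difference from Saline was -0.32 in Dex_CDGHDM lungs (exact permutation p = 0.00433, adjusted p = 0.0180 over its 6 comparisons) and -0.24 in AM155 lungs (exact permutation p = 0.0216, adjusted p = 0.0433). In the Dex_CDGHDM contrast the adjusted p of the exact permutation test reached 0.0540 without Saline 4, 8 or 10. In the AM155 contrast it was 0.0571 to 0.0952 without any 1 of Saline 2, 4, 8 and 10 or of AM155 3, 6, 8 and 11, and 0.0866 to 0.101 under median-of-ratios and common-sum scaling.

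**Figure D4:**
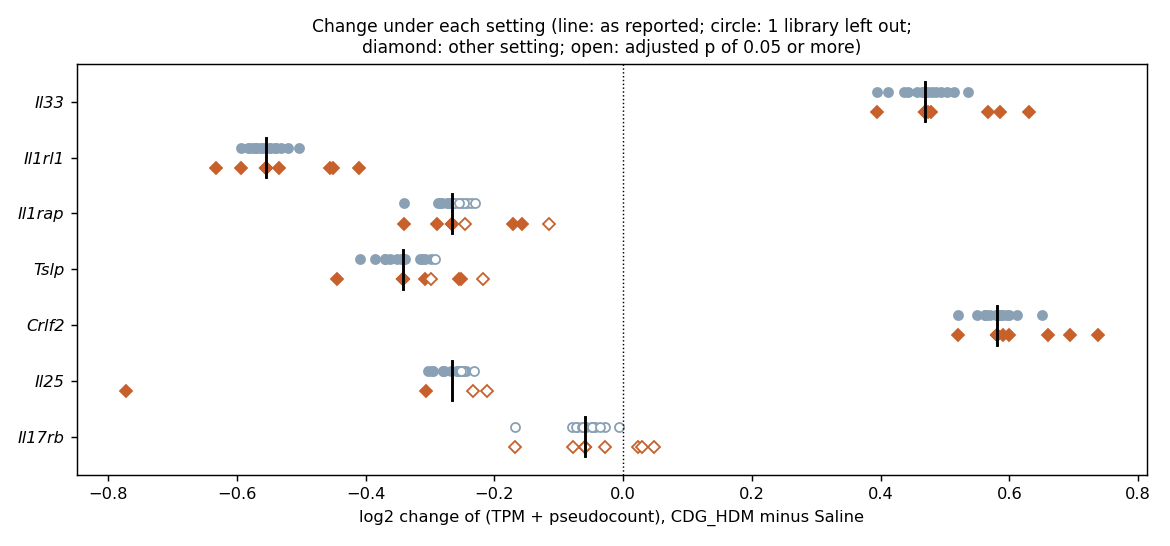
Log2 change between CDG_HDM and Saline for each of the 7 genes as reported (black line), with 1 library left out (circles) and under the other settings (diamonds); open markers have an adjusted p of 0.05 or more. Il33, Il1rl1 and Crlf2 have filled markers throughout, Il1rap, Tslp and Il25 a mixture, and the Il25 diamond at -0.77 is the pseudocount of 0.1.

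Genes that work with the alarmin receptors were then described by lists, which were drawn up with earlier results of these data known. Among all genes tested, 9.34% were called higher and 22.8% lower, and a list whose shares are near these gives no result about the list. For the partner chains and decoys, 1 of 4 was called higher in CDG_HDM than in Saline lungs and none lower. It was Il7r, the chain that completes the TSLP receptor, at 18.0 ± 2.78 TPM in CDG_HDM (SD, n = 10) and 9.51 ± 2.47 TPM in Saline libraries (n = 5), a log2 change of 0.87 ± 0.137 (limma adjusted p = 1.12e-05). Under the 3 other scalings 2 of the 4 were higher. Both chains of the TSLP receptor were therefore higher. Of 7 tested genes of the IL-1 family that act at receptors built with Il1rap, 2 were higher, the inflammatory ligand Il1b (0.51) and the receptor antagonist Il1rn (0.46), and 1 lower, the ligand Il1a (-0.37); under the 3 other scalings 3 were higher and 0 to 1 lower. The list medians were 0.03 and -0.02, against -0.10 for all genes.

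Downstream of the receptors, 2 of 16 signal transduction genes were called higher and 1 lower: Stat5a (0.31), which carries the TSLP signal, Nfkbia (0.27), an inhibitor of NF-kB, and Rela (-0.23), an NF-kB subunit. This count depended on scaling, with 8 to 9 higher and 0 to 3 lower under the 3 other scalings, and as reported it was close to the share of all genes for higher calls and below it for lower calls. Of 5 feedback genes, 2 were higher, Tnfaip3 (0.73), a brake on NF-kB, and Cish (0.32), a brake on STAT5, and none lower; 3 were higher under the 3 other scalings. Among 6 tested sensors of danger and allergen, 3 were higher and 1 lower, and under the 3 other scalings 5 were higher and 1 lower. Those higher were Clec4n (1.31), the gene of Dectin-2, which binds mite glycans, Tmem173 (0.70), the gene of STING, which binds cyclic di-GMP, and P2ry2 (0.41), a receptor for extracellular ATP, and the one lower was F2rl1 (-0.40; named after its value was seen), the gene of a protease-activated receptor. Clec4n averaged 95.5 ± 17.0 TPM in CDG_HDM and 37.7 TPM in Saline libraries. Of 6 tested proteases that process IL-33, 2 were lower, the mast cell tryptase gene Tpsb2 (-0.65) and the neutrophil proteinase gene Prtn3 (-0.36). None was higher, but 3 were under the other scalings.

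For cell types that respond to alarmins, the 12 ILC2 genes had 1 member higher and 2 lower, near or below the shares of all genes, and 2 higher and 1 lower under the 3 other scalings. The genes called in TPM as deposited were Icos (1.88), a costimulatory receptor also carried by T cells, Ptgdr2 (-0.34), a prostaglandin D2 receptor, and Il5 (-0.28), the eosinophil growth factor. Of the 10 mast cell and basophil genes, those most reduced were Gata2 (-0.90), a transcription factor also expressed by endothelium, Cpa3 (-0.84), a mast cell protease, and Tpsb2; 6 were lower and none higher, and under the 3 other scalings 4 to 5 were lower. Of the 8 regulatory T cell genes, a cell type that can carry ST2, 4 were higher and 2 lower, with Ctla4 at 1.63 and Lrrc32 and Ikzf4 at -0.79 and -0.59. The other 2, Foxp3 (-0.004) and Il2ra (0.02), were not called (limma adjusted p = 0.978 and 0.898), and were named after their values were seen. Of the 9 dendritic cell genes, 5 were higher and 1 lower, led by Irf4 (2.21), Cd86 (1.55) and Pdcd1lg2 (1.43), which encodes a ligand of PD-1, and with Cd209a, a C-type lectin gene, as the one lower. The list medians were -0.08 for ILC2, -0.26 for mast cells and basophils, 0.19 for regulatory T cells and 0.44 for dendritic cells.

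For cell types that make alarmins, 3 of 10 alveolar type 2 genes were higher, the surfactant protein genes Sftpd (0.81) and Sftpa1 (0.35) and Lamp3 (0.26), and none lower; under the 3 other scalings 6 to 8 were higher. Of 8 tested genes of other epithelium, 5 were lower and none higher, with Scgb1a1, the club cell secretoglobin, at -1.16, Hopx, an alveolar type 1 marker, at -0.82 and Krt8, a keratin, at -0.56. Scgb1a1 averaged 32371 ± 8386 TPM in CDG_HDM (SD, n = 10) and 70517 TPM in Saline libraries. Of 10 fibroblast genes 2 were higher and 4 lower, and under the 3 other scalings 2 were higher and 3 lower. Those most reduced were Pi16 (-1.16), Pdgfra (-0.80) and Col13a1 (-0.63). The 2 higher were Dpt (0.55) and Col1a2 (0.39), named after their values were seen. The 1 tuft cell gene called, Dclk1, changed by 0.97. In the comparisons of Dex_CDGHDM and of AM155 with CDG_HDM, limma called 0 of the 113 genes tested on the 14 lists. Of them, 18 and 12 had an unadjusted limma p under 0.05, where 692 and 1263 of all 17413 genes did. Among the 3 other scalings, up to 1 mast cell and basophil gene was called lower in Dex_CDGHDM. In settings other than scaling, up to 1 mast cell and basophil gene and up to 1 fibroblast gene were called higher in AM155.

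**Figure D5:**
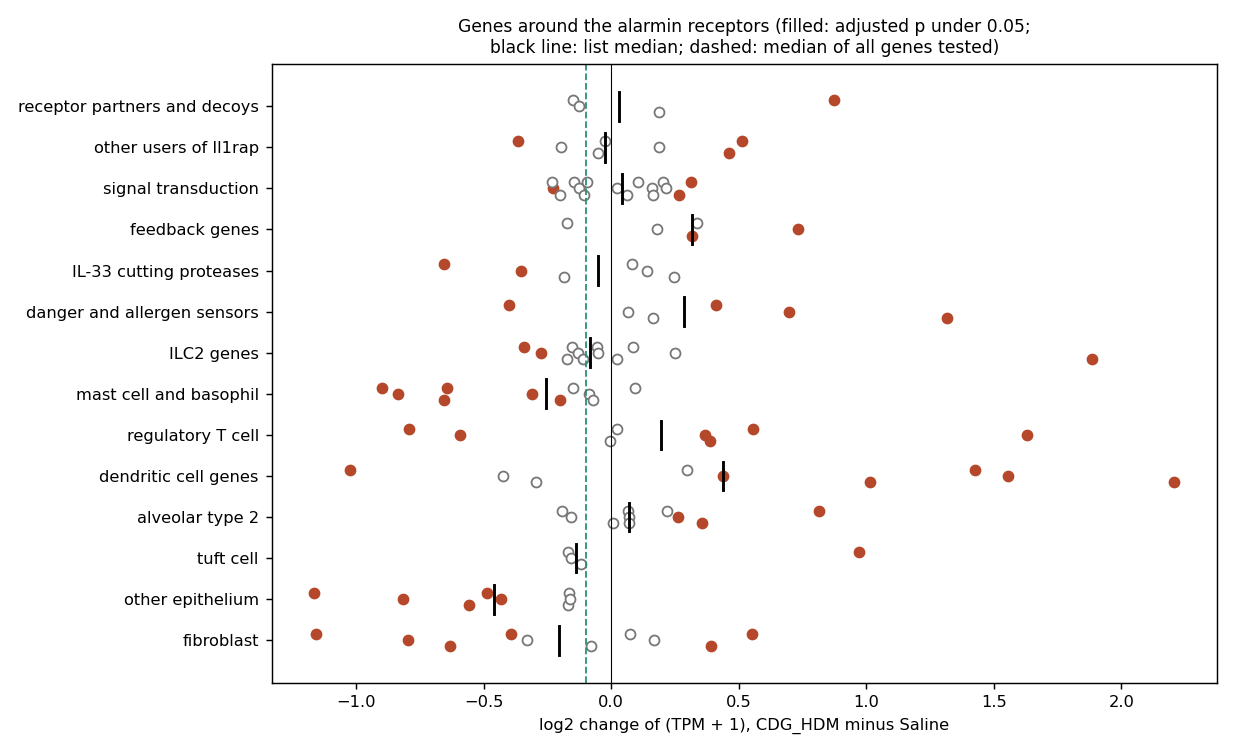
Log2 change of (TPM + 1) between CDG_HDM and Saline for each gene tested on the 14 lists (points; filled where the limma adjusted p is under 0.05), with the list medians as black bars and the median of all genes (-0.10) as a dashed line. Points of the dendritic cell list extend furthest to the right, and all points of the other epithelium list lie left of 0.

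Libraries of 1 group differed from each other too, and genes whose TPM varied with each member were sought after subtracting the group means. The measure was the correlation of log2(TPM + 1) over the 27 libraries, which share their linear sum, and it is given as a description. For Il33 the nearest genes were Lrp2 (Pearson r = 0.889, Spearman rho = 0.879), Sgpp2 (0.887 and 0.902) and Slc34a2 (0.882 and 0.866), the last a phosphate transporter of alveolar type 2 cells. After rescaling to a common sum r remained 0.845 to 0.860 for these. For a list, the mean of log2(TPM + 1) over its genes was used in the same way. That mean for the 10 alveolar type 2 genes, Slc34a2 among them, also followed Il33 from library to library (Pearson r = 0.785, Spearman rho = 0.774, and r = 0.735 after rescaling). In TPM as deposited, these nearest genes were not called between CDG_HDM and Saline as Il33 was: Slc34a2 was at 0.07, Lrp2 at -0.07 and Sgpp2 at -0.17 (limma adjusted p = 0.685, 0.756 and 0.362). Their changes under the 3 other scalings are not given here. Under those scalings 6 to 8 of the 10 alveolar type 2 genes were called higher, against 3 in TPM as deposited.

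For Il1rl1 the nearest genes were Hsd11b1 (Pearson r = 0.879, Spearman rho = 0.858), which regenerates active glucocorticoid, and the endothelial genes Cldn5 (0.866 and 0.802) and Plvap (0.859 and 0.821), with r of 0.787 to 0.817 after rescaling. These 3 were also lower in CDG_HDM than in Saline lungs, by -0.83, -0.98 and -0.95 (limma adjusted p = 0.000799, 4.02e-05 and 3.14e-05). The mast cell and basophil list followed Il1rl1 with Pearson r = 0.705 and Spearman rho = 0.736, and r = 0.526 after rescaling. Other lists followed Il1rl1 too. The ILC2 list had r = 0.662 and a higher rho of 0.773 (r = 0.394 after rescaling), and the alveolar type 2 list r = 0.612 (0.338 after rescaling). Only 41 genes had an r over 0.8 with Il1rl1 and 64 with Il33, in contrast to 3265 for Il1rap, whose nearest gene was Daam1 (Pearson r = 0.970, Spearman rho = 0.940). Il1rap was also the member most closely tied to the linear sum of a library (r = 0.774), with Il33 at 0.475 and Il25 at 0.281.

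Tslp was nearest to Fam171a1 (Pearson r = 0.817, Spearman rho = 0.742), Ptpn12 (0.810 and 0.750) and Polr2k (0.799 and 0.823). Crlf2 was nearest to Klhl36 (0.932 and 0.927), Traf2 (0.927 and 0.886) and Dbnl (0.927 and 0.905), and it followed the dendritic cell list with r = 0.714 (rho = 0.689), or 0.575 after rescaling. This was not particular to that list. The r of Crlf2 was higher with the regulatory T cell list (0.859, or 0.656 after rescaling), signal transduction (0.847, or 0.585) and the partner chains and decoys (0.788, or 0.698). With the sensors (0.780) and the IL-33 proteases (0.744) it was higher only before rescaling (0.442 and 0.403 after). Il17rb was nearest to Dbndd1 (0.901 and 0.864), D10Wsu102e (0.872 and 0.771) and B230307C23Rik (0.871 and 0.774). Among the 7 genes themselves the closest pair was Tslp and Il25, both ligands (Pearson r = 0.727, Spearman rho = 0.648, and r = 0.706 after rescaling). Il33 and its receptor gene Il1rl1, which changed in opposite directions between groups, varied together within groups (r = 0.604, rho = 0.541, and r = 0.459 after rescaling). Tslp and its receptor gene Crlf2 had r = 0.171 (rho = 0.179), and r = -0.396 after rescaling.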

How the data were processed

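The authors deposited linear and circular RNA levels as TPM, a share of transcripts scaled for length, by gene symbol, for 27 libraries of whole left lung lobe. Per the submitters' processing notes, the build was mm10 and CASAVA 1.9 was used; aligner, quantifier and annotation were not given in the sources used here. Per the labels' protocols, RNA integrity numbers were 6.9 to 8.6 and 100M reads were planned for a sample, but TPM keeps no counts, so no depth, interval or floor could be computed. The labels list the libraries as separate samples of a group and do not say more of how the mice were housed or processed. The spread behind a p-value may thus include technical spread.

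Symbols turned into dates (26) were left out. Linear TPM was transformed as log2(TPM + 1), which understates changes of low genes, and 17413 genes that reached 1 TPM in 5 or more libraries were kept. All 27 libraries entered 1 model in limma 3.58.1 (R 4.3.3; contrasts.fit after lmFit, eBayes with its trend option, no covariates); tests were two-sided, and p-values were adjusted by Benjamini-Hochberg over all these genes, with a threshold of 0.05. The model was checked on simulated data. Il25, under the filter, was tested by exact permutation over libraries, two-sided. Named genes were the 7 genes, for each tested member the 3 genes of highest residual correlation, the up to 3 called genes of largest change in each list, and the 3 alveolar type 2 genes of highest TPM. The 7 genes and the 14 lists were chosen with earlier results of these data known. In the lists, Cma1 and Clec7a were not analysed here. Alternatives were 3 scalings, a pseudocount of 0.1, no filter, no trend, only the 2 groups compared, the replicate number as a block, leaving out each library, leaving out Saline 4 and AM155 6, and, chosen after seeing the data, leaving out the 3 libraries with a circular sum over 200000 TPM. Gene positions are from GENCODE M21 (GRCm38, the same assembly as mm10), and start regions and miRNA from RefSeq (GRCm38.p6). The motif GATAA was chosen after its matches had been seen. No sequence is printed for Tslp.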

Additional observations from a re-analysis of the deposited data

Results flagged for a closer look

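Each of the 7 genes was checked in each of the 4 groups, 28 sets in all, for a library far from the rest of its group, and 2 sets met the rule (Dixon's 95% limit, which chance passes in about 1 in 20 groups). Il1rl1 was 7.61 TPM in AM155 11, the highest of 6 AM155 libraries, the nearest of which was at 5.05 TPM. Il1rap was 9.5 TPM in Saline 4, the lowest of 5 Saline libraries, the nearest of which was at 12.1 TPM. Saline 4 was also the lowest Saline library for Il33, Il1rl1, Crlf2 and Il17rb and the highest for Il25.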

How the results depend on the processing

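In CDG_HDM against Saline, the calls of Il33 (log2 change 0.39 to 0.63), Il1rl1 (-0.63 to -0.41) and Crlf2 (0.52 to 0.74) held in the 10 other settings and in the 15 fits that each left out 1 library. No member reversed a called change in any setting run. The cause of the changes below was not tested unless named. On rescaling to a common sum, Il1rap was -0.12 and Tslp -0.22 in CDG_HDM against Saline (3 members called), Il1rl1 -0.20 in Dex_CDGHDM against Saline, and Il33 0.56, Il1rap -0.072 and Tslp -0.24 in AM155 against Saline; Il25 was -0.21 in CDG_HDM and -0.15 in AM155 against Saline. With median-of-ratios and quantile scaling, Il1rl1 was -0.26 and -0.28 in Dex_CDGHDM and Il33 0.48 and 0.49 in AM155 against Saline; with median of ratios Il25 was -0.23 in CDG_HDM and -0.18 in AM155 against Saline. Genes called in Dex_CDGHDM against CDG_HDM, 1 as reported, were 47, 63 and 35 under the scalings (median of ratios, quantile, common sum), 0 with a pseudocount of 0.1, 2 with no filter, 0 with no trend and 2 with only these groups fitted. In AM155 against CDG_HDM, 18 as reported, they were 34, 33 and 38 under the scalings. Il1rl1 in Dex_CDGHDM against Saline was -0.43 with a pseudocount of 0.1 and -0.38 with no filter, and Il1rap in AM155 against Saline was -0.33 with only these groups fitted, all past 0.05.

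No clear pairing of libraries by replicate number was seen, although a weak pairing could go unseen in this check. Over 20 pairs that share a number, residual correlations ran from -0.239 to 0.274, 2 were over 0.1, and 2 libraries correlated best with their own number. With the number as a block, 3310 genes were called in CDG_HDM against Saline (5599 as reported), 0 in Dex_CDGHDM and 10 in AM155 against CDG_HDM; 3 members were called in CDG_HDM against Saline, with Il1rap at -0.25 and Tslp at -0.30, and 2 in Dex_CDGHDM against Saline, with Il1rl1 and Tslp both at -0.39.

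Without Saline 4 and AM155 6, 8644 genes were called in CDG_HDM against Saline, 5 in Dex_CDGHDM and 28 in AM155 against CDG_HDM, and in Dex_CDGHDM against Saline Il33 was 0.37 and Il1rap -0.31. Without the 3 libraries of large circular sum, 3 genes were called in Dex_CDGHDM against CDG_HDM, 2 members in Dex_CDGHDM against Saline (Il33 0.44, Il1rl1 -0.32), and Il1rap was -0.24 in AM155 against Saline. Leaving out 1 library at a time gave, in CDG_HDM against Saline, -0.34 to -0.23 for Il1rap, -0.41 to -0.29 for Tslp, -0.30 to -0.23 for Il25 and 3 to 5 members called. In Dex_CDGHDM against Saline it gave 0.37 to 0.54 for Il33, -0.48 to -0.32 for Il1rl1, -0.31 to -0.20 for Il1rap, -0.36 to -0.29 for Il25 and 2 to 4 members called. In AM155 against Saline it gave -0.40 to -0.26 for Il1rap, -0.22 to -0.062 for Il17rb and -0.27 to -0.20 for Il25. It gave 0 to 2 genes called in Dex_CDGHDM and 7 to 21 in AM155 against CDG_HDM. Of 2156 list counts recomputed, 115 moved by over 1.5 times. Levels under 1 TPM, as for Il25, are the least certain, since TPM keeps no depth.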
